A study of Mus musculus with 19 samples.

Results

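Smooth muscle and mesothelial mesoderm genes were followed here through 10 symbols: Hand1, Foxf1a, Tbx20 and Wt1, which encode transcription factors, Acta2, Tagln, Cnn1 and Des, which encode parts of the contractile and cytoskeletal apparatus, Postn, which encodes a matrix protein, and Pdgfrb, which encodes a receptor. They were taken by symbol from the transcript table and are 10 of 23337 symbols and 15 of 30455 RefSeq transcripts. Each gene was followed by the transcript with the highest mean count over the 11 libraries. All 10 passed the filter on low counts.

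RNA sequencing of ribosome-depleted total RNA covered 11 mouse libraries. The visceral yolk sac (VYS) of FVB/N embryos was split by enzyme and by hand into an endoderm layer (ysE) and a mesoderm layer, and each sample pooled a whole litter. There were 2 libraries of ysE at E9.25, 2 of VYS mesoderm at E9.25, 1 of ysE at E12.5 and 2 of fetal liver at E12.5, the liver also from FVB/N embryos. Vessels and basement membrane stayed with the mesoderm layer in this separation. Cystic embryoid bodies (EBs), the fluid-filled structures that aggregates of embryonic stem (ES) cells form without LIF, gave 4 libraries from C57BL/6 x 129 hybrid ES cells: day 10 and day 15 of clone A9 (replicate A) and of clone JN (replicate B). The labels give no treatment or mutation in any group, and each EB replicate is 1 ES cell clone. The ysE and mesoderm libraries of E9.25 and those of clone JN were made with the dUTP protocol, those of liver and of clone A9 with ScriptSeq, and the E12.5 ysE library was not strand-specific. Total counts per RNA library were 40453779 to 169981821. Bisulfite libraries of tissues and ES clones from CAST/EiJ and FVB/N crosses, and a ChIP-seq library of FVB/N yolk sacs, are described further on. Where several libraries of a tissue stand for replicates, the p-values measure the spread between pooled litters or between clones and days. The 4 EB libraries come from 2 clones. The days of a clone also share a library protocol and are not independent (correlation of deviations 0.614, to which clone and protocol may both contribute). P-values that count these 4 as replicates may therefore be too small.

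Marker lists were used to check the tissue labels. Endoderm markers (Afp, Ttr, Apoa1 and 4 others) summed to 10260 and 11736 RPKM (reads scaled to transcript length and library size) in E9.25 ysE and to 43648 RPKM in E12.5 ysE, against 1125 and 1973 RPKM in mesoderm, 14.1% of the ysE level on average. Of 7 endoderm markers, 5 were lower in mesoderm than in E9.25 ysE at an adjusted p below 0.05 (edgeR), where 13.7% of all transcripts were. Mesoderm held embryonic globin and other erythroid markers at 43969 and 34280 RPKM and endothelial markers at 169 and 155 RPKM, so the layer was a mixture of blood, vessels and other mesoderm. In cystic EBs, 4 markers of undifferentiated ES cells summed to 89.5 to 181 RPKM. Among 4 hepatoblast markers, Alb was at 358 and 767 RPKM in liver, 0.221 and 0.194 RPKM in E9.25 ysE and 80.5 RPKM in E12.5 ysE. The sum of the 4 did not separate these tissues, at 474 and 989 RPKM in liver, 288 and 347 RPKM in E9.25 ysE and 1596 RPKM in E12.5 ysE, where Fgb alone gave 1508 RPKM. It was 8.54 to 76.7 RPKM in mesoderm and EBs. In such bulk samples, fewer cells of a type and less RNA per cell cannot be told apart.

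The outer wall of the VYS is visceral endoderm, and beneath it lies extraembryonic mesoderm with blood islands, vessels, fibroblast-like and smooth muscle-like cells and a mesothelial lining that faces the exocoelom. Hand1, a basic helix-loop-helix factor, and Foxf1 (Foxf1a in the table), a forkhead factor, are both required in extraembryonic mesoderm for the yolk sac vasculature. Contractile genes such as Acta2, Tagln and Cnn1 are switched on through serum response factor, which binds CArG boxes with cofactors of the myocardin family, while Pdgfrb marks the mural cells that PDGF-B from endothelium recruits. Most of these genes are also active in the early heart, and Acta2, Tagln and Des are made in embryonic cardiomyocytes.

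Promoter sequence was taken from RefSeq (5 of the 10 genes matched: Tbx20, Postn, Acta2, Cnn1 and Des). The Acta2 start used, at 34255373, lies inside the gene interval given further on, which ends at 34255585. Most of the bases printed before that start therefore fall within the interval. The 250 bases before 4 starts are shown because the histone mark and methylation described further on bear on them: those of Acta2 and Postn, the most abundant contractile gene and the matrix gene among the 10, of Tbx20, which is rich in CpGs, and of Cnn1, the one among the 4 with no H3K4me3 peak. All are written 5' to 3' on the strand of the gene, on GRCm38.p6, and capitals mark a CArG box with at most 1 base different, CATTCC or TATAAA on either strand.
Acta2, chr19:34255374-34255623, minus strand: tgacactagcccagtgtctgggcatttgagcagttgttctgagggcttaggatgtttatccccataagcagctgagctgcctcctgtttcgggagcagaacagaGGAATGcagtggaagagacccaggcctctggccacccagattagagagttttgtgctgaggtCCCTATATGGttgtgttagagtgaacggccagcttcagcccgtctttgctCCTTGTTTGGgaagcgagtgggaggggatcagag
Cnn1, chr9:22099003-22099252, plus strand: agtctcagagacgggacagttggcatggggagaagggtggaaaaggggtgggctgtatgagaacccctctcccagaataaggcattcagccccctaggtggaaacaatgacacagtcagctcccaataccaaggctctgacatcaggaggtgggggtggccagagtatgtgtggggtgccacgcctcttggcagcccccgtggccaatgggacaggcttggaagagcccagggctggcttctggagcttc
Tbx20, chr9:24774304-24774553, minus strand: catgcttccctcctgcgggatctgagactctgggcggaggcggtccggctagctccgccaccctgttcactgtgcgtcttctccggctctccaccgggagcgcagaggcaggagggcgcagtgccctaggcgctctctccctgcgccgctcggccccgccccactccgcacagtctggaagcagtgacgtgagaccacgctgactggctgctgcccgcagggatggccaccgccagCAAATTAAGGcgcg
Postn, second start, chr3:54360857-54361106, plus strand: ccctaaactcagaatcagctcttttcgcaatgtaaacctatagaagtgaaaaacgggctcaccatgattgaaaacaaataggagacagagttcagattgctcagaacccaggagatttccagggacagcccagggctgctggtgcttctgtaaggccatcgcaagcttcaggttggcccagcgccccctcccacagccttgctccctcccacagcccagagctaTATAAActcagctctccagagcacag
Acta2 held 2 sequences 1 base away from a CArG box, CCCTATATGG at 84 to 75 bases and CCTTGTTTGG at 34 to 25 bases before the start, and the reverse complement of CATTCC at 146 to 141 bases. Tbx20 held CAAATTAAGG at 14 to 5 bases before its start, and Postn held TATAAA at 26 to 21 bases. No printed promoter and no base of the Des promoter matched a CArG box in full, which 1.47% of 32851 promoters did. With 1 base different the share was 18.6%, for CATTCC 12.6% and for TATAAA 12.4%. CANNTG, the E-box core, occurred at 3 places before Acta2, at 1 before Cnn1 and at 2 before Des, and in 66.2% of all promoters. The Tbx20 stretch held 22 CpG dinucleotides at 68.8% GC, against 4 for Acta2, 3 for Cnn1 and 4 for the second Postn start.

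Over the whole set, the summed level of the 10 genes was highest in VYS mesoderm, at 660 and 449 RPKM, and lowest in E12.5 ysE, at 5.20 RPKM. The cystic EBs lay between, at 161 RPKM (day 10, A9), 79.3 RPKM (day 10, JN), 142 RPKM (day 15, A9) and 251 RPKM (day 15, JN). Liver summed to 38.6 and 23.9 RPKM and E9.25 ysE to 14.6 and 19.1 RPKM. By mean level, 8 genes were highest in mesoderm, and Cnn1 and Des were highest in cystic EBs. The share of all transcripts with their highest mean in mesoderm was not counted. Postn ranked 181 among all 30455 transcripts in mesoderm, Acta2 ranked 496 and Tagln 1198, while Wt1 and Cnn1 ranked 15152 and 16057. Most members were thus most abundant in the mesoderm layer, which alone does not show smooth muscle or mesothelial cells. Wt1, the mesothelial factor, and Cnn1 ranked low there.

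**Figure D1:**
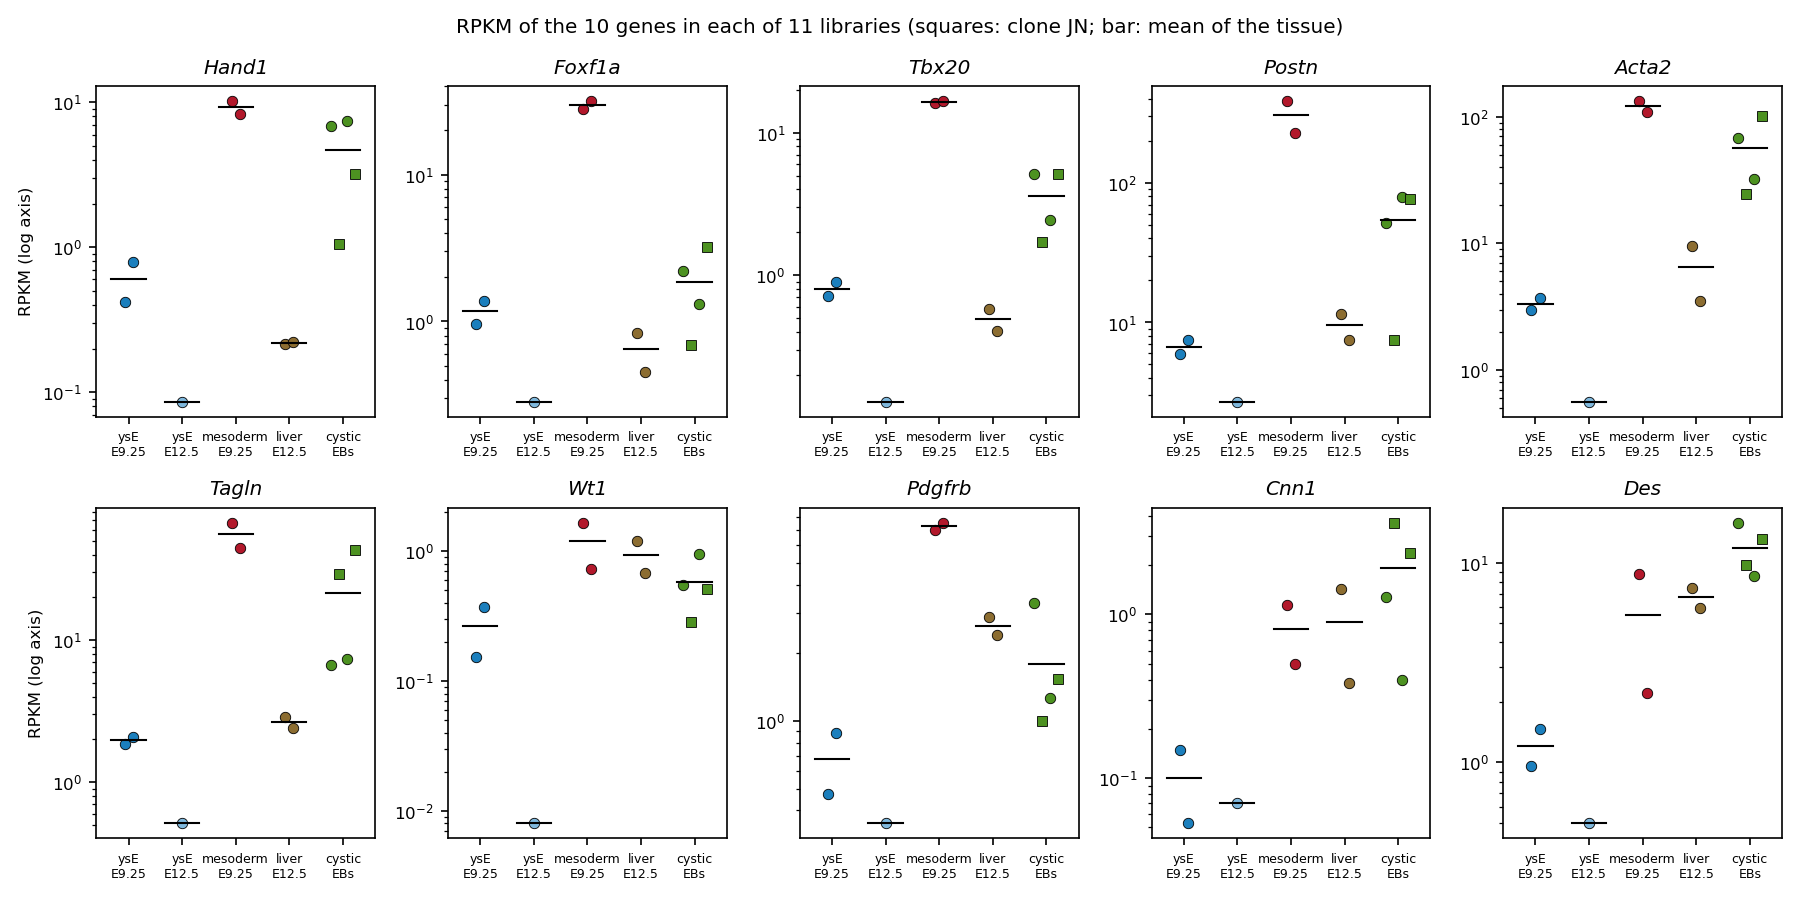
RPKM of each of the 10 genes (log axis) in each library of E9.25 ysE, E12.5 ysE, VYS mesoderm, liver and cystic EBs, with squares for clone JN and a bar for the mean of a tissue. Both mesoderm points lie above all cystic EB points for 7 genes, as for 19.7% of all transcripts. All cystic EB points lie above the E12.5 ysE point for all 10, as for 41.4% of all transcripts.

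Among the transcription factors, Hand1 (chr11:57828713-57832147, GRCm38.p6) was at 10.2 and 8.35 RPKM in mesoderm and at 0.419 and 0.788 RPKM in E9.25 ysE. In cystic EBs it was at 6.92 and 7.48 RPKM in clone A9, days 10 and 15, and at 1.05 and 3.22 RPKM in clone JN. Liver held 0.215 and 0.221 RPKM and E12.5 ysE 0.086 RPKM, from 7 reads. No tissue overlapped its neighbour in this order of mesoderm, cystic EBs, E9.25 ysE, liver and E12.5 ysE, although the A9 EBs came close to mesoderm. Foxf1a (chr8:121084386-121088154) was at 28.2 and 31.7 RPKM in mesoderm. Elsewhere it stayed low, at 0.962 and 1.39 RPKM in E9.25 ysE, at 2.22, 0.695, 1.32 and 3.23 RPKM in the EBs (day 10 A9, day 10 JN, day 15 A9, day 15 JN), at 0.840 and 0.456 RPKM in liver and at 0.284 RPKM in E12.5 ysE. The EBs and E9.25 ysE overlapped for Foxf1a. Liver lay just below E9.25 ysE and E12.5 ysE below liver, each without overlap. The long non-coding gene Fendrr, which starts 1275 bp from Foxf1, was at 1.43 and 1.52 RPKM in mesoderm and at 0.033 to 0.326 RPKM in the EBs.

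Tbx20 (chr9:24720812-24774303), a T-box factor of heart and extraembryonic mesoderm, was at 16.2 and 16.7 RPKM in mesoderm. It was at 5.12 RPKM (day 10) and 2.42 RPKM (day 15) in the A9 EBs and at 1.72 RPKM (day 10) and 5.15 RPKM (day 15) in the JN EBs. E9.25 ysE held 0.712 and 0.902 RPKM, liver 0.585 and 0.405 RPKM and E12.5 ysE 0.130 RPKM. All 5 tissues were apart in this order, and the 2 mesoderm libraries differed little. Wt1 (chr2:105126529-105173614), a zinc finger factor of the mesothelium and of the coelomic lining of organs, was scarce everywhere. Its level was 1.67 and 0.732 RPKM in mesoderm, 1.20 and 0.678 RPKM in liver, 0.552, 0.284, 0.955 and 0.514 RPKM in the EBs, 0.152 and 0.375 RPKM in E9.25 ysE and 0.008 RPKM, a single read, in E12.5 ysE. Mesoderm, liver and EBs overlapped for Wt1. The antisense gene Wt1os starts 18 bp from Wt1 and was at 0.644 and 0.325 RPKM in liver and at most 0.048 RPKM elsewhere, and use of the strand in counting is not stated.

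Of the contractile genes, Acta2 (smooth muscle alpha-actin, chr19:34240336-34255585) was at 133 and 109 RPKM in mesoderm. The EBs held 67.4 RPKM (day 10, A9), 24.7 RPKM (day 10, JN), 32.4 RPKM (day 15, A9) and 102 RPKM (day 15, JN). E9.25 ysE held 2.97 and 3.70 RPKM, liver 9.56 and 3.50 RPKM and E12.5 ysE 0.560 RPKM. The highest EB library thus came close to the lower mesoderm library, while the lowest EB library was still above every liver and ysE library. Tagln (transgelin or SM22, an actin-binding protein, chr9:45929628-45936058) was at 67.3 and 44.6 RPKM in mesoderm. It was at 6.72 and 7.35 RPKM in the A9 EBs and at 29.0 and 43.2 RPKM in the JN EBs, days 10 and 15. In E9.25 ysE it was at 1.86 and 2.09 RPKM, in liver at 2.87 and 2.40 RPKM and in E12.5 ysE at 0.512 RPKM. Tagln overlaps the 3' part of Pcsk7 by 2480 bp, and Pcsk7 was lower in mesoderm (6.70 and 6.78 RPKM) than in E9.25 ysE (7.90 and 8.54 RPKM).

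Cnn1 (calponin 1, a marker of differentiated smooth muscle, chr9:22099221-22109221) and Des (desmin, the intermediate filament of muscle, chr1:75360292-75368579) followed another order. Cnn1 was at 1.28 and 0.396 RPKM in the A9 EBs and at 3.64 and 2.39 RPKM in the JN EBs, days 10 and 15. Mesoderm held 1.14 and 0.496 RPKM, liver 1.43 and 0.382 RPKM, E9.25 ysE 0.148 and 0.053 RPKM and E12.5 ysE 0.070 RPKM, from 6 reads. Cnn1 levels of EBs, liver and mesoderm overlapped, and only the ysE libraries were below them all. Des was at 15.9, 9.68, 8.57 and 13.1 RPKM in the EBs (day 10 A9, day 10 JN, day 15 A9, day 15 JN) and at 7.44 and 5.96 RPKM in liver. Its mesoderm libraries were 3.96-fold apart, at 8.78 and 2.22 RPKM, the widest gap between the mesoderm replicates among the 10 genes, and E9.25 ysE held 0.955 and 1.46 RPKM. E12.5 ysE was the lowest, at 0.496 RPKM. For Des the EBs were above liver without overlap and overlapped mesoderm.

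Postn (periostin, chr3:54359267-54391041), a secreted matricellular protein of mesenchyme, was the most abundant of the 10 in mesoderm, at 386 and 228 RPKM. It was at 51.8 and 79.4 RPKM in the A9 EBs and at 7.50 and 76.6 RPKM in the JN EBs, days 10 and 15. Liver held 11.6 and 7.51 RPKM, E9.25 ysE 5.92 and 7.47 RPKM and E12.5 ysE 2.70 RPKM. The day 10 JN library was at the level of the lower liver library, and the other EB libraries were well above it. Pdgfrb, the receptor of PDGF-B, was at 7.03 and 7.57 RPKM in mesoderm and at 2.88 and 2.40 RPKM in liver. The EBs held 3.33, 0.995, 1.27 and 1.54 RPKM, E9.25 ysE 0.475 and 0.882 RPKM and E12.5 ysE 0.351 RPKM. For Pdgfrb liver thus lay between mesoderm and the mean of the EBs, with 1 EB library above both liver libraries and 3 below.

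The first comparison asks how the 2 layers of the yolk sac differ in these genes. Under the quasi-likelihood test of edgeR, adjusted by Benjamini-Hochberg for the 24858 transcripts tested, 8 of the 10 genes were higher in mesoderm than in E9.25 ysE at an adjusted p below 0.05, where 16.9% of all transcripts were higher, and none was lower, where 13.7% were. Their median log2 difference was 3.82, against 0.05 over all transcripts. Postn differed most, by 5.19 on the log2 scale (SE 0.96, adjusted p = 0.00318). Acta2 followed at 4.86 (SE 0.73, adjusted p = 0.0012), Tagln at 4.5 (SE 0.87, adjusted p = 0.00402) and Foxf1a at 4.35 (SE 0.67, adjusted p = 0.00134). Tbx20 had the smallest adjusted p, 0.000614, with a log2 difference of 4.03 (SE 0.52). Hand1 (3.62, adjusted p = 0.009), Pdgfrb (3.11, adjusted p = 0.00285) and Des (1.85, adjusted p = 0.0306) also passed. Cnn1 (2.70, SE 1.04, adjusted p = 0.0776) and Wt1 (1.85, SE 0.69, adjusted p = 0.0704) did not. Without E9.25 ysE replicate A, Hand1 and Des missed the threshold (adjusted p = 0.0792 and 0.173), and Des also missed it without ysE replicate B (0.0854) or mesoderm replicate A (0.404). All 10 passed in DESeq2, where 20.6% of all transcripts were higher, and with the 4 libraries alone in the fit, where 30.3% were.

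In RPKM, all 10 genes were higher in both mesoderm libraries than in both ysE libraries, which 43.7% of all transcripts were too. The E9.25 ysE level was 2.18% of that of mesoderm for Postn, 2.76% for Acta2, 3.53% for Tagln, 3.92% for Foxf1a, 4.91% for Tbx20 and 6.50% for Hand1. For comparison, marker sums in ysE stood at 2.40% of mesoderm for the erythroid list and at 4.36% for the endothelial list, which lack a known role in endoderm. The remaining members were at 9.29% (Pdgfrb), 12.3% (Cnn1), 22% (Wt1) and 22% (Des). How far mesoderm carried over in the separation contributes to the ysE levels was not tested.

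**Figure D2:**
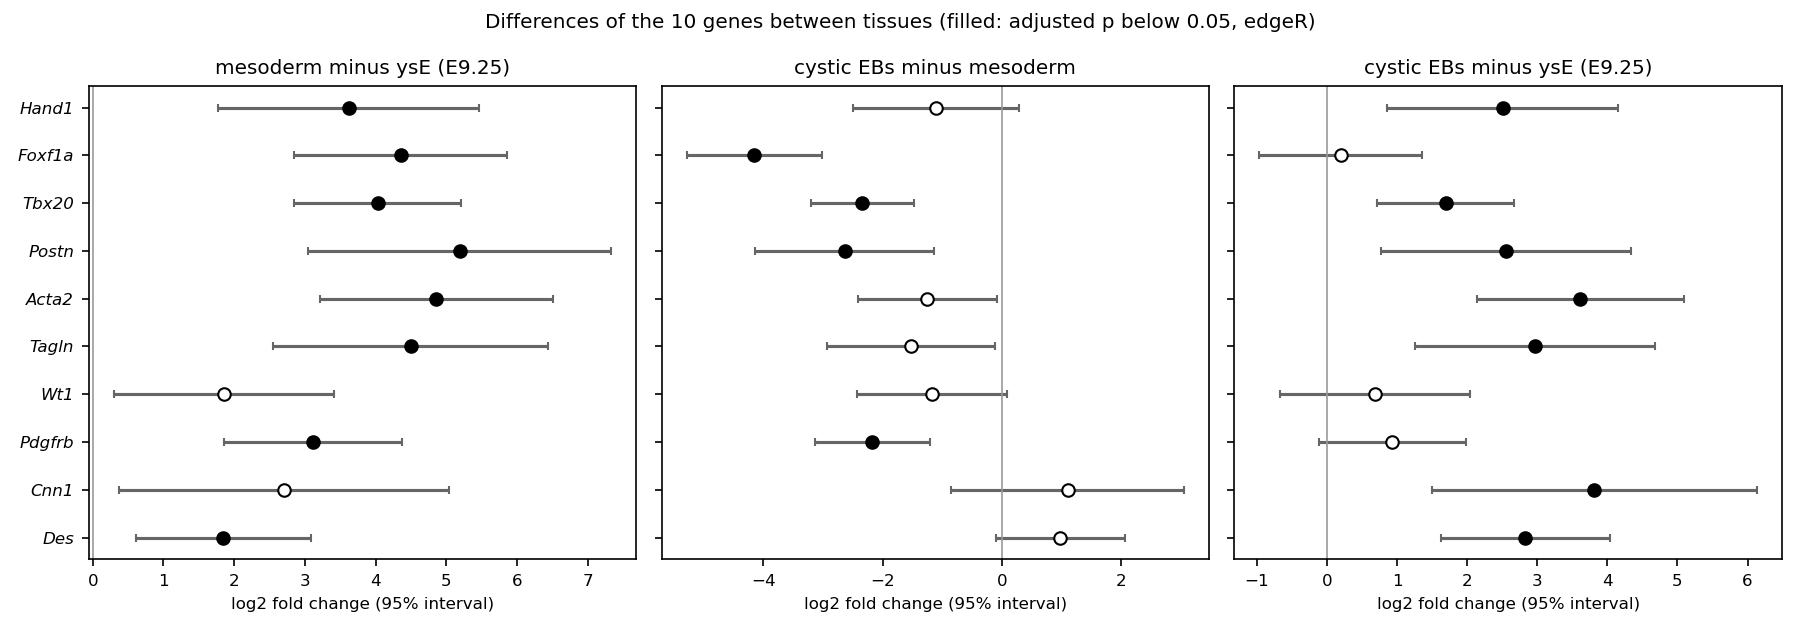
Log2 fold change of each gene with its 95% interval for mesoderm minus ysE at E9.25, cystic EBs minus mesoderm and cystic EBs minus E9.25 ysE, filled where the adjusted p was below 0.05 in edgeR. Foxf1a in EBs is at 0.20 against ysE, with an interval across 0, and at -4.16 against mesoderm, while Cnn1 and Des lie to the right in all 3 panels.

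Cystic EBs were set against mesoderm to see which of these genes reach the level of the yolk sac layer in culture. None of the 10 was higher in EBs, where 13.9% of all transcripts were higher, and 4 were lower, where 15% were. Foxf1a was 17.8-fold lower (log2 -4.16, SE 0.51, adjusted p = 0.000576), Postn 6.22-fold lower (-2.64, SE 0.67, adjusted p = 0.0174), Tbx20 5.06-fold lower (-2.34, SE 0.39, adjusted p = 0.0026) and Pdgfrb 4.51-fold lower (-2.17, SE 0.43, adjusted p = 0.00599). The Foxf1a fold rests on transcript counts of 149, 85, 80 and 426 in the EBs (day 10 A9, day 10 JN, day 15 A9, day 15 JN). Separate exon-part counts held 682, 280, 416 and 1120 reads. Mesoderm has no exon-part counts, so the effect on this fold was not tested. The contractile genes Acta2 (-1.25, 95% interval -2.42 to -0.08, adjusted p = 0.0994) and Tagln (-1.52, -2.93 to -0.12, adjusted p = 0.0942) missed the threshold, as did Hand1 (-1.11, -2.50 to 0.28, adjusted p = 0.202) and Wt1 (-1.17, -2.43 to 0.10, adjusted p = 0.144). Cnn1 (1.11, -0.84 to 3.06, adjusted p = 0.356) and Des (0.98, -0.10 to 2.07, adjusted p = 0.15) lay on the other side of 0. The median over the members was -1.39, against 0.03 over all transcripts.

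Calls in this comparison moved with the libraries used. With dUTP libraries only, which leaves clone JN as the EBs, 7 genes were lower, with Hand1, Tagln and Wt1 added, and Cnn1 was higher (log2 1.78, adjusted p = 0.0379), but calls also became more common over all transcripts, with 21.4% lower and 21.1% higher. Without the day 15 JN library, 6 were lower, with Acta2 and Tagln added (adjusted p = 0.0397 and 0.0302), beside 15.3% of all transcripts. Without mesoderm replicate A, Postn missed the threshold (adjusted p = 0.115) and Des was higher in EBs (log2 2.25, adjusted p = 0.0196), and without mesoderm replicate B, Postn missed it as well (adjusted p = 0.0527). Lower calls were then down to 6.68% and 6.46% of all transcripts. Foxf1a, Tbx20 and Pdgfrb kept their call in every alternative tried.

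The study asked whether cystic EBs can stand in for ysE in culture, and most of these transcripts were at higher levels in EBs. The paper describes EBs as a mixed tissue with cells other than endoderm, whereas ysE was collected apart from mesoderm. These differences therefore do not tell what the endoderm of EBs expresses. At E9.25, 7 of the 10 were higher in EBs, where 27.1% of all transcripts were higher. Cnn1 led at 14.1-fold (log2 3.81, SE 1.03, adjusted p = 0.013), then Acta2 at 12.2-fold (3.61, SE 0.66, adjusted p = 0.00177), Tagln at 7.85-fold (2.97, SE 0.76, adjusted p = 0.0101) and Des at 7.11-fold (2.83, SE 0.54, adjusted p = 0.00221). Thus all 4 contractile genes were higher, together with Postn (2.56, adjusted p = 0.0232), Hand1 (2.51, adjusted p = 0.0181) and Tbx20 (1.69, adjusted p = 0.0104). Pdgfrb (0.94, 95% interval -0.12 to 1.99), Wt1 (0.68, -0.67 to 2.04) and Foxf1a (0.20, -0.96 to 1.36) did not pass, with adjusted p of 0.121, 0.362 and 0.766. For Foxf1a the separate exon-part counts hold more reads than the transcript table and place 3 of the 4 EB libraries above ysE replicate A, with no test. This count rests on both ysE libraries. It was 3 without ysE replicate A, when Hand1, Tbx20, Postn and Tagln were lost, and 2 without ysE replicate B, when Cnn1 was lost too. Calls fell over all transcripts as well, to 16.2% and 16.8% higher.

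The E12.5 ysE library has no replicate, so its spread is assumed to be that of the other tissues and the calls compare EBs with that library rather than with the stage. Of the 10 genes, 9 were higher in EBs, where 21.1% of all transcripts were higher, and all 4 EB libraries were above the ysE library for all 10, as for 41.4% of transcripts. The calls of Wt1, Cnn1 and Hand1 rested on 1, 6 and 7 reads in the ysE library, and their fitted differences are not given. Acta2 differed by 6.27 (SE 1.08, adjusted p = 0.00177), Tagln by 5.0, Tbx20 by 4.41, Des by 4.2, Postn by 3.95 and Pdgfrb by 1.97 (adjusted p = 0.0442) on the log2 scale. Foxf1a, at 2.33, missed the threshold (adjusted p = 0.0524). For Wt1 a single ysE read gave a ratio of mean RPKM of 72.0, with a counting interval of 12.9 to 2845. The count was 5 when only these 5 libraries were fitted, with Cnn1, Pdgfrb, Postn and Tagln lost, and 14.3% of all transcripts were then higher. The comparisons of EBs with mesoderm, both ysE stages and liver share the 4 EB libraries and are not independent of each other.

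Fetal liver contains its own mesenchyme and served as the embryonic endodermal organ of the set. In EBs 5 genes were higher than in liver, where 24.6% of all transcripts were: Hand1 by 4.10 (adjusted p = 0.0034), Acta2 by 2.75 (0.00637), Tagln by 2.68 (0.017), Tbx20 by 2.51 (0.00218) and Postn by 2.16 (adjusted p = 0.0454), all on the log2 scale. Without liver replicate A the count was 3 and without replicate B it was 2, with Postn and Tagln lost in both, and 15.7% and 13.5% of all transcripts were then higher. None was lower in EBs than in liver, where 20.9% of transcripts were, but without the day 10 A9 library Pdgfrb was (log2 -1.39, adjusted p = 0.00576), against -0.91 (adjusted p = 0.115) with it. In mesoderm, 6 genes were higher than in liver, where 21% of all transcripts were: Foxf1a by 5.32, Hand1 by 5.20, Tbx20 by 4.85, Postn by 4.79, Tagln by 4.2 and Acta2 by 4.0. Mesoderm was taken at E9.25 and made with dUTP, liver at E12.5 and made with ScriptSeq. Tissue, stage and library protocol cannot be told apart in this comparison. Pdgfrb (1.27, adjusted p = 0.0821), Wt1 (0.13, 0.892), Cnn1 (-0.37, 0.784) and Des (-0.51, 0.474) did not differ past the threshold between mesoderm and liver, and none was lower in mesoderm, where 17.8% of transcripts were. Without mesoderm replicate A, Des was lower in mesoderm than in liver (log2 -1.77, adjusted p = 0.0331), beside 7.47% of all transcripts. The 4 markers of hepatic stellate cells, the pericytes of the liver, summed to 47.5 and 51.3 RPKM in liver and to 0.226 to 6.20 RPKM elsewhere. Reln made up nearly all of the liver sum, at 45.0 and 48.5 RPKM. Lrat was at 0.266 and 0.343 RPKM in liver, and Lhx2 was at 1.75 RPKM in the day 15 JN EBs, above its liver levels of 0.829 and 0.969 RPKM. The liver libraries were also unlike in some muscle genes, picked after their values were seen: replicate A was above replicate B for Myh11 (6.49 and 1.21 RPKM), Tnnt2 (6.09 and 1.60 RPKM), Myl2 (4.32 and 0.559 RPKM) and Myog (1.15 and 0.310 RPKM), and Sox2 was at 1.4 and 0.011 RPKM. Among the members, Acta2 (9.56 and 3.50 RPKM) and Cnn1 (1.43 and 0.382 RPKM) were higher in replicate A in the same way. Other listed muscle genes did not follow. Replicate B was above replicate A for Myl7 (1.57 RPKM in A and 2.49 RPKM in B) and Vcl (25.3 and 29.3 RPKM), and Smtn was alike (3.20 and 3.21 RPKM). The part of stellate cells or of other tissue in the liver levels of the members was not tested.

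Genes of the same pathways were counted beside the members. Between mesoderm and E9.25 ysE, where 16.9% of all transcripts were higher and 13.7% lower, 11 of 20 smooth muscle and SRF pathway genes were higher and none lower (median log2 1.76), among them Myl9 (5.36), a regulatory myosin light chain, Itga8 (4.63), an integrin of mesenchyme and smooth muscle, and Cald1 (4.36), caldesmon. Of 16 matrix and TGF-beta genes, 13 were higher and none lower (median 3.61), led by the proteoglycans Dcn (5.16) and Lum (5.03) and by Col3a1 (4.86). Of 10 mesothelial genes in the table, 5 were higher and 1 lower (median 2.77), with Upk1b at 5.25, Upk3b at 4.90 and Bnc1 at 4.76. Gpm6a was the mesothelial gene called lower, at -2.34. Levels of this list in mesoderm were uneven, beside the 1.67 and 0.732 RPKM of Wt1. Krt19 was at 47.1 and 32.8 RPKM and Upk3b, a uroplakin, at 37.3 and 35.3 RPKM. Bnc1, Upk1b and Tcf21 were at 2.11 to 7.47 RPKM. Msln, Lrrn4, Aldh1a2, Gpm6a and Tmem151a were at 0.025 to 0.715 RPKM. Of 18 mesoderm transcription factors, 5 were higher and 2 lower (median 0.95, against 0.05 over all transcripts), the latter a share no larger than that of all transcripts, with Twist2 at 4.95, Foxf2 at 4.54 and Hand2, the paralogue of Hand1, at 3.89. Of 12 PDGF pathway and pericyte genes, 4 were higher and none lower (median 1.74), with Angpt1 at 4.67, Abcc9 at 4.01 and Pdgfd at 3.11. Myh11, the heavy chain that defines mature smooth muscle and singled out after its values were seen, was at 0.223 and 0.133 RPKM in mesoderm, at 0.045 to 0.121 RPKM in the EBs and at 6.49 and 1.21 RPKM in liver.

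Between cystic EBs and mesoderm the lists parted, where 13.9% of all transcripts were higher and 15% lower. Of the 20 smooth muscle and SRF pathway genes, 6 were lower in EBs and none higher (median log2 -0.20), with Actg2 at -4.40, Myl9 at -2.46 and Mylk, the myosin light chain kinase, at -2.23. Of the 16 matrix genes, 7 were lower and none higher (median -1.33), with Lum at -4.35, Col1a1 at -4.33 and Col3a1 at -3.74. The mesothelial list split, with 3 genes higher and 3 lower, from Upk3b at -4.85 to Gpm6a at 4.65 and Tmem151a at 2.89, the last at no more than 0.027 RPKM in mesoderm and 0.253 RPKM in EBs. The mesoderm transcription factors were higher in 8 and lower in 2 of 18 cases (median 2.09), with Mesp1 at 5.19, Tbx18 at 4.42 and Prrx1 at 4.25, which are known from nascent, epicardial and limb or craniofacial mesoderm. These differences were taken against mesoderm levels near 0 and give no exact fold. Mesp1 was at 0 and 0.007 RPKM in mesoderm and 0.049 to 0.331 RPKM in EBs, Tbx18 at 0.022 and 0.006 RPKM and 0.080 to 0.683 RPKM, and Prrx1 at 0.086 and 0.021 RPKM and 0.700 to 1.48 RPKM. In the PDGF list 3 were higher and 4 lower of 12, with the pericyte gene Rgs5 at 4.0, Abcc9 at -2.69 and Notch3 at 2.29.

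**Figure D3:**
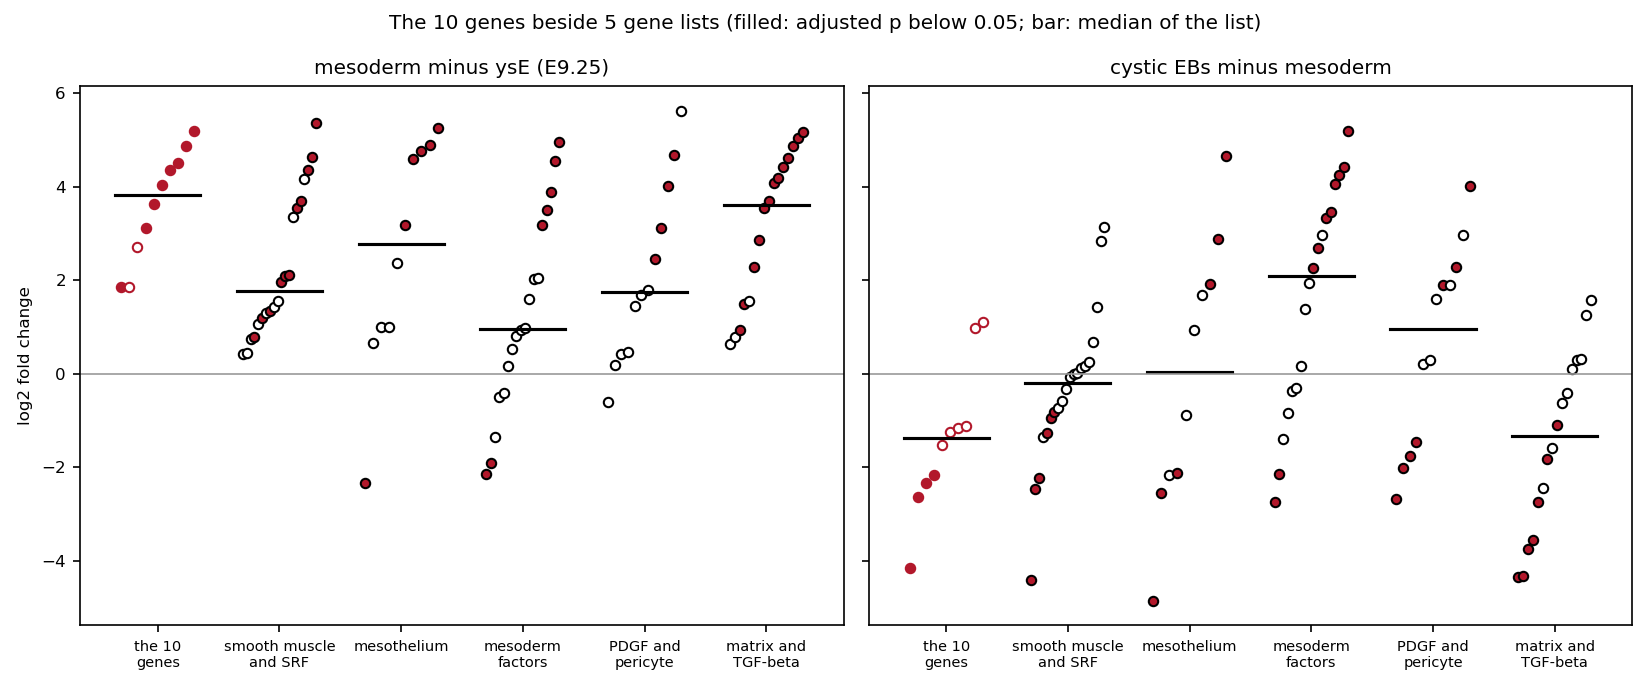
Log2 fold changes of the 10 genes and of 5 gene lists for mesoderm minus ysE at E9.25 and for cystic EBs minus mesoderm, filled where the adjusted p was below 0.05, with a bar at the median of each list. The members have a median of 3.82 on the left and -1.39 on the right, close to the matrix list (3.61 and -1.33), while the mesoderm factors have a median of 2.09 on the right.

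Markers of other cells also varied among the EB libraries. The sum of 7 cardiomyocyte markers was 113 RPKM (day 10, A9), 16.3 RPKM (day 10, JN), 26.2 RPKM (day 15, A9) and 322 RPKM (day 15, JN) in EBs. It was 38.5 and 24.3 RPKM in mesoderm, of which Tnni1 alone gave 33.1 and 21.3 RPKM, 17.5 and 6.88 RPKM in liver and 0.259 to 1.34 RPKM in ysE. Of the 7, 5 were higher in EBs than in mesoderm, beside 13.9% of all transcripts, with Myh6 at 8.05, Myl2 at 7.21 and Myl7 at 6.40 on the log2 scale. In mesoderm Myh6 and Myl2 were at 0 to 0.047 RPKM and Myl7 at 0.709 and 0.494 RPKM, so the first 2 differences give no exact fold. In RPKM, Acta2, Foxf1a and Tbx20 had the same order of the 4 EB libraries as this sum, and the other 7 members did not. Day 15 JN was at the top and day 10 JN at the bottom. For Tbx20 the top places were nearly tied, at 5.15 RPKM (day 15 JN) and 5.12 RPKM (day 10 A9). In CPM over all exon parts, day 10 A9 was instead above day 15 JN for Tbx20 (50.4 and 44.6) and Foxf1a (16.3 and 12.2). Acta2 kept the order of the sum there. How many of all transcripts share this order was not counted. The endothelial markers, lower in EBs than in mesoderm for 4 of 5, beside 15% of all transcripts, summed to 45.1, 7.98, 24.1 and 20.2 RPKM in the same libraries. The part of cardiomyocytes or vessels in the levels of these members was not tested.

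Within cystic EBs, day 15 was compared with day 10. In the fit of the 4 EB libraries no transcript was called, members included, at an adjusted p below 0.05 (0% of 22452). At an unadjusted p below 0.05 there were 304 transcripts, and DESeq2 called 11, none of them a member. The members' differences ran from -0.90 (Cnn1) to 1.4 (Postn) on the log2 scale. Days 10 and 15 of a letter come from the same ES clone, and with the clone as a block the count was 0 as well.

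The change with time was also read in each clone, a step added after the values were seen. In clone A9, 6 of 10 genes were lower at day 15, as were 49.4% of all transcripts, and in clone JN 9 of 10 were higher, as were 49.8%. Acta2 went from 67.4 to 32.4 RPKM in A9 and from 24.7 to 102 RPKM in JN. Tbx20 went from 5.12 to 2.42 RPKM in A9 and from 1.72 to 5.15 RPKM in JN, and Foxf1a from 2.22 to 1.32 RPKM and from 0.695 to 3.23 RPKM. Pdgfrb and Des likewise moved in opposite directions, so that 5 of 10 members did, against 41.7% of all transcripts. In a fit of all 11 libraries, in which each EB library stands alone and is assumed to vary like the other tissues (3 residual degrees of freedom), the day 15 JN library was above the day 10 JN library for Postn by 3.25 (SE 0.44, adjusted p = 0.0251), where 0.567% of all transcripts were called. This compares 1 library with 1 library, with the spread taken from other tissues, and does not show a change with time. In A9 no member was called, where 0.595% of transcripts were. No member passed the test of the difference between the clones' changes, where 0.306% of transcripts did. Tbx20 came closest, with a difference of changes of 2.46 (SE 0.43, adjusted p = 0.0828).

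**Figure D4:**
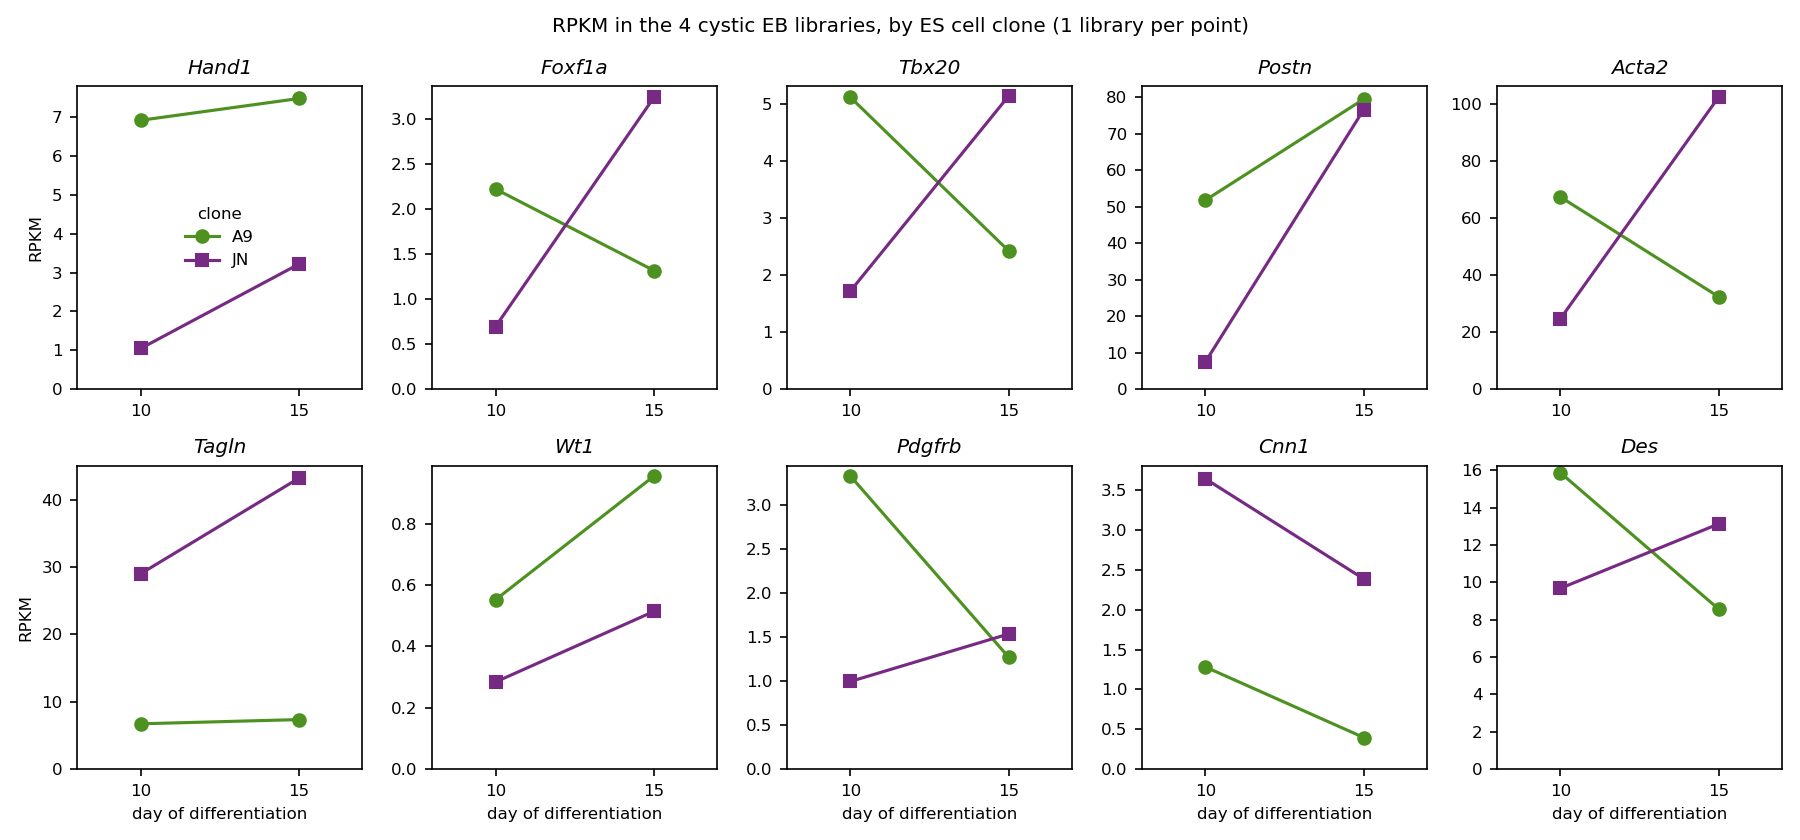
RPKM of each gene at days 10 and 15 of differentiation in the cystic EBs of clones A9 (circles) and JN (squares), 1 library per point. Tagln and Cnn1 are higher in JN and Hand1, Wt1 and Postn higher in A9 on both days, Postn only slightly at day 15. The lines cross for Foxf1a, Tbx20, Acta2, Pdgfrb and Des.

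Compared over both days, clone JN held more Tagln than clone A9, 4.84-fold (log2 2.28, SE 0.25, adjusted p = 0.00455), the only member called, where 7.9% of all transcripts were higher in JN and 4.64% lower. Each side is 1 clone at days 10 and 15, so the SE and p-value measure the spread between days and not between clones. In RPKM the JN level of Tagln was 4.31 times that of A9 at day 10 and 5.88 times at day 15. Hand1 was lower in JN (-1.85, SE 0.50, adjusted p = 0.0622) and Cnn1 higher (1.81, SE 0.59, adjusted p = 0.0954), short of the threshold. With the day as a block both passed, Hand1 at -2.03 (adjusted p = 0.0327) and Cnn1 at 1.96 (adjusted p = 0.0331). Calls over all transcripts rose as well, to 10.1% higher and 7.9% lower in JN. Clone, sex of the cells and library protocol cannot be told apart here, since by the study's methods A9 is an XY clone and JN an XX clone, and both A9 libraries were made with ScriptSeq and both JN libraries with dUTP. The other transcripts of Tbx20, Postn and Pdgfrb gave the same calls and directions in all comparisons, except that the 2 shorter Tbx20 transcripts had a positive difference between clones (0.32 and 0.35, not called) where the main one had -0.22.

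The likeness of the members' patterns was described over the 11 libraries as Pearson r of log2(RPKM + 1), a measure that tissue and library depth share in. Among the 45 pairs of members, r ran from 0.09 (Foxf1a and Cnn1) to 0.95 (Tbx20 and Postn), with a median of 0.69, and Cnn1 and Des reached 0.77. Among 16336 transcripts of other genes with a mean of at least 1 RPKM, Foxf1a was most like Scn7a (0.989), Acer2 and Ppp1r16b, and Tbx20 was most like Ptges (0.984), Gas6 and Vasn. For Hand1 these were Leprel1 (0.976), Adam15 and Tspan3. Postn was most like Col4a5 (0.986), Klhl5 and Col4a6, 2 of which are basement membrane collagens. Pdgfrb was most like Mmrn2 (0.987), Kdr and She, genes of endothelium. Acta2 was most like Zfp354c (0.988), Nxn and Ndn, and Tagln was most like Tmsb10 (0.976), Dcaf12l1 and Tspan6. Lower values were found for Des with Hmgn3 (0.963), Zscan12 and Capn6, for Cnn1 with A130049A11Rik (0.959), Crocc and Raet1c, and for Wt1 with Pag1 (0.922), Igf1 and Itm2a.

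H3K4me3, the histone mark of active and poised promoters, was mapped by ChIP-seq in 1 library of E12.5 VYS with both layers, pooled from several FVB/N embryos, so a peak may come from either layer. A peak lay within 1 kb of a start for 8 of the 10 genes, against 45.5% of 32851 starts. At a score of 3100 (MACS score, -10 log10 of the p-value), which 24.7% of 22343 peaks reach or pass (the highest is 3233), were peaks of 4449 bp at Hand1, 5055 bp at Foxf1, 6076 bp at Tbx20, 2727 bp at Acta2, 2378 bp at Pdgfrb and 2145 bp at the second start of Postn, against a median width of 1195 bp. The Postn peak covers the printed start with TATAAA, while the first Postn start, upstream, had only a peak of 445 bp with a score of 54.9. Tagln (score 221, 1174 bp) and Des (score 169, 956 bp) had weak peaks, below the median score of 863. Wt1 and Cnn1 had none.

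CpG methylation was read by bisulfite sequencing in E12.5 ysE, E12.5 liver and day 15 cystic EBs, each with 2 libraries of reciprocal crosses between CAST/EiJ and FVB/N mice (CxF and FxC). The genetic background thus differed from that of the RNA libraries, which were FVB/N or, for EBs, C57BL/6 x 129. The EB clones CF-C2 and FC-A2 were not those of the RNA libraries, and mesoderm was not among the samples. Coverage was thin, with a median of 1 read per CpG call, so reads within 1 kb of each start were pooled over both libraries, and 95% Wilson intervals cover counting error only. Acta2 lies on chromosome 19, which was not analysed here. The promoter of Foxf1 was unmethylated in all 20 reads of ysE and all 24 reads of EBs, with upper limits of 16.1% and 13.8%, and at 7.50% of 40 reads in liver (0% of 29 in CxF and 27.3% of 11 in FxC). Tbx20, with its 22 CpGs in the printed stretch, was at 5% of 40 reads in ysE, 11.1% of 9 reads in liver and 33.3% of 21 reads in EBs (interval 17.2% to 54.6%). The EB value joined unlike libraries, 50% of 14 reads in CF-C2 and 0% of 7 reads in FC-A2 (upper limit 35.4%).

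At Postn the intervals of the 3 tissues did not overlap when both libraries were pooled. Methylation was 29.0% in ysE (31 reads, interval 16.1% to 46.6%), 81.4% in liver (43 reads, 67.4% to 90.3%) and 100% in EBs (36 reads, 90.4% to 100%), and the gene body gave 43.7%, 75.8% and 90.9% of 222, 265 and 320 reads. Most reads lay near the first start. Within 1 kb of the second, ysE was at 0% of 8 reads (upper limit 32.4%), liver at 85.7% of 7 and EBs at 100% of 7. The windows of both starts overlap upstream of the large H3K4me3 peak that covers the second start. In ysE FxC all 6 reads of the second window lay in this overlap and were counted for both starts. The ysE value therefore does not give the methylation at the marked start, and some liver reads lay in the overlap too. Single libraries were less clear. Over both starts, in ysE CxF was at 46.2% of 13 reads (23.2% to 70.9%) and FxC at 16.7% of 18, and in liver CxF was at 63.2% of 19 reads (41.0% to 80.9%) and FxC at 95.8% of 24 (79.8% to 99.3%), so that ysE and liver overlapped within CxF and liver overlapped EBs within FxC. The RNA was in another order, lowest in E12.5 ysE at 2.70 RPKM and 51.8 RPKM or more in 3 of the 4 EB libraries. At Hand1, ysE was at 75.6% (41 reads, 60.7% to 86.2%), EBs at 42.6% (47 reads, 29.5% to 56.7%) and liver at 7.14% (14 reads, 1.27% to 31.5%). The ysE value joined unlike libraries, 100% of 28 reads in CxF and 23.1% of 13 reads in FxC. The EB libraries differed too, at 29.2% of 24 reads in CF-C2 and 56.5% of 23 in FC-A2. Within 500 bp of the Hand1 start they were at 9.09% of 11 and 76.9% of 13 reads. Cnn1 was at 58.8% of 17 reads in ysE, 30% of 20 reads in liver and 86.2% of 29 reads in EBs. In ysE Cnn1 was at 72.7% of 11 reads in CxF and 33.3% of 6 in FxC. Pdgfrb was at 42.9% of 14, 48% of 25 and 74.2% of 31 reads in the same order. Its libraries were unlike as well, at 80% of 10 reads (CxF) and 26.7% of 15 (FxC) in liver and at 93.8% of 16 (CF-C2) and 53.3% of 15 (FC-A2) in EBs.

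Tagln gave close values with wide intervals in the 3 tissues, at 70.3% of 37 reads in ysE (interval 54.2% to 82.5%), 73.7% of 19 in liver (51.2% to 88.2%) and 68.2% of 22 in EBs (47.3% to 83.6%). Wt1 was at 31.6% of 19 reads in ysE, 0% of 7 in liver, with an upper limit of 35.4%, and 29.4% of 17 in EBs (41.7% of 12 in CF-C2 and 0% of 5 in FC-A2, upper limit 43.4%). Des was at 66.7% of 18 reads in ysE and 72.2% of 18 in EBs, with too few reads in liver. The median over the members with at least 5 reads was 42.9% in ysE (9 genes), 20.6% in liver (8 genes) and 68.2% in EBs (9 genes). All 3 moved with the setting. The ysE median went to 28.2% without the CxF library and to 20% within 500 bp. That of liver went to 39% with at least 10 reads and to 31.6% within 500 bp, and that of EBs to 54.9% without the CF-C2 library. Taken over all promoters, the ysE libraries had medians of 42.9% and 40%, those of liver 60% and 62.5% and those of EBs 75% and 68.8%.

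**Figure D5:**
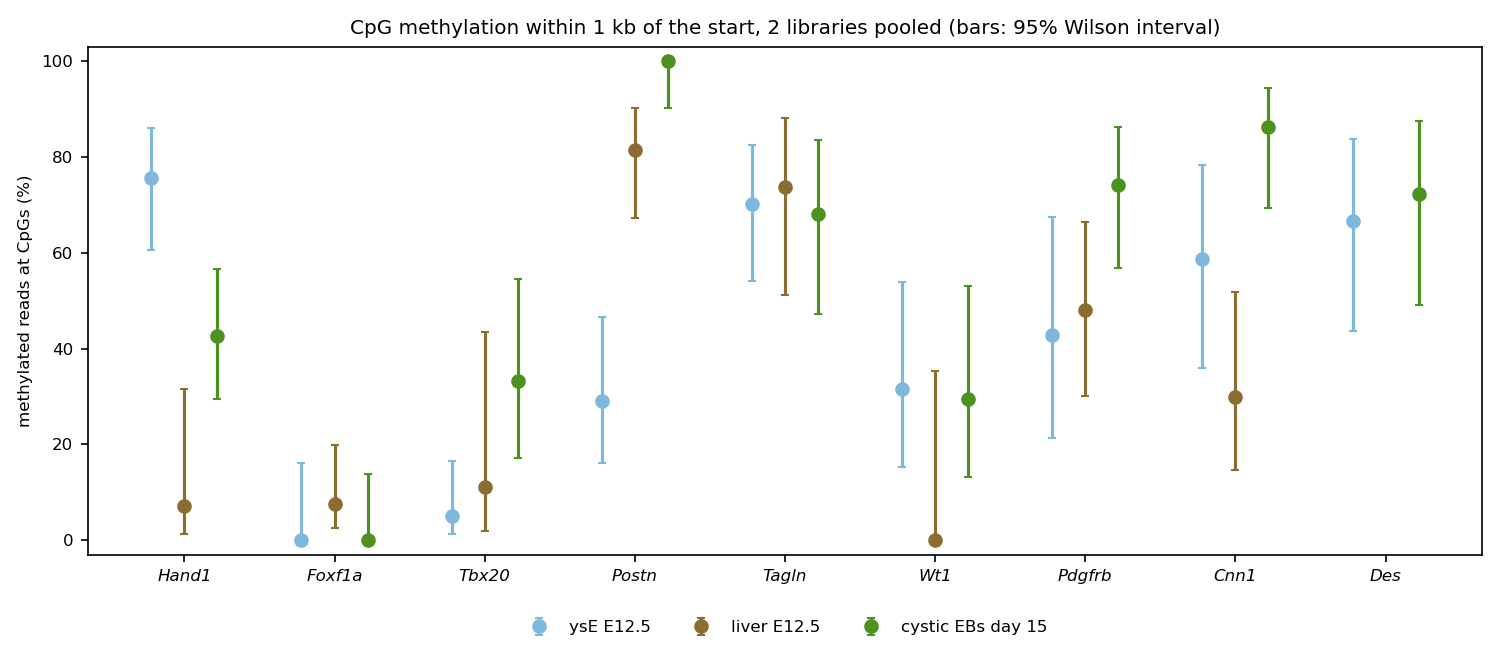
Percent of methylated reads at CpGs within 1 kb of the start of 9 genes in E12.5 ysE, E12.5 liver and day 15 cystic EBs, 2 libraries pooled, with 95% Wilson intervals. Foxf1a is at 0% in ysE and EBs and at 7.50% in liver, and Postn runs from 29.0% in ysE to 100% in EBs.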

How the data were processed

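The authors aligned the RNA reads with GSNAP to mm10 and deposited counts per RefSeq transcript and RPKM, using RSeQC along with scripts of their own. The library size behind RPKM, and whether counting used strand, are not given in the sources used here. Exon-part counts were deposited for the EB and E9.25 ysE libraries. The file of 1 ysE library held only zeros and was not used. Deposited methylation calls (BisSNP) give percent methylation and reads per CpG. H3K4me3 peaks carry the MACS 1.4.2 score that the authors deposited. A repeat table was not used. Methylation of chromosomes 19, X and Y was not analysed here.

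Counts of all 11 libraries were fitted in R 4.3.3 with edgeR 4.0.16 (filterByExpr, TMM, quasi-likelihood, group means of 5 tissues, the 4 EB libraries as replicates, biological coefficient of variation 0.3995). Day and clone were compared in the 4 EB libraries (0.5265 and 0.3171). P-values were adjusted by Benjamini-Hochberg over all transcripts tested, with a threshold of 5%. DESeq2 1.42.0 and limma 3.58.1 on log2(RPKM + 1) and log2(RPKM + 0.1) were among the alternatives, and the fits were tested on simulated data. Python 3.11.15 served for the rest, with pandas 2.3.3, numpy 2.4.6, scipy 1.17.1 and matplotlib 3.10.9. Methylation values need at least 5 reads within 1000 bp of a start, and gene strands for starts outside the promoter table were set from general knowledge.

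The 10 members, the gene lists and the alternatives were chosen with earlier results of these data known. All members were named, of each list up to 3 called genes with the largest change, and per member the 3 transcripts with the most similar pattern, along with neighbouring genes within 2 kb. The comparison of the clones' changes was added after the values were seen. Same-lettered EB libraries share an ES clone and a library protocol (correlation of deviations 0.614 between days). Tissue letters carry no stated link, and their pairing is treated under the dependence on processing.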

Additional observations from a re-analysis of the deposited data

How the results depend on the processing

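Counts of called members stayed within 1.5 times the reported one except as follows. Lower in EBs than in mesoderm were 7 with dUTP libraries only and 3 to 6 with 1 library left out, and higher was 1 with dUTP libraries only and 0 to 1 with 1 library left out. Higher in EBs were 2 to 7 against E9.25 ysE and 2 to 6 against liver with 1 library left out, and 5 against E12.5 ysE with only the groups compared. With 1 library left out, 0 to 1 were lower than in liver, both in EBs (Pdgfrb, without the day 10 A9 library) and in mesoderm (Des, without mesoderm replicate A). Higher in clone JN were 2 in DESeq2, beside 13% of all transcripts, and 2 with the replicate block (here the day), beside 10.1%. Lower in JN was 1 in DESeq2 (beside 11.5% of all transcripts), without the filter (5.46%), with the block (7.9%) and with all 11 libraries fitted (10%). Both counts also moved with 1 library left out. They are not given, since 1 clone then holds a single library.

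Tissue letters share only a letter (correlations of deviations -0.07 for ysE with mesoderm, -0.05 for ysE with liver and 0.16 for mesoderm with liver). The replicate block left the counts against E9.25 ysE and liver as they were (E12.5 ysE has 1 library and no block). It gave 5 members lower in EBs than in mesoderm by adding Tagln (adjusted p = 0.046), where 17.5% of all transcripts were lower, against 15% without the block. Scaling by RLE moved the median of all transcripts in mesoderm against liver from 0.09 to -0.02. Of the other values of single genes, 932 kept direction and side of the threshold, 43 fell short of it, 34 passed it and 31 turned sign, none of these called.

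The sign turns, in log2 differences, were these, and their cause was not tested. Cnn1 in EBs against liver was -0.44 with ScriptSeq libraries only, and in mesoderm against liver 0.0039 in limma with a pseudocount of 0.1. Foxf1a in JN against A9 was -0.027 and -0.15 in limma with pseudocounts of 1 and 0.1 and -0.25 with the block. With 1 library left out, EBs against E9.25 ysE ranged from -0.21 to 0.52 for Foxf1a. Mesoderm against liver ranged from -0.53 to 0.63 for Wt1, -1.05 to 0.90 for Cnn1 and -1.77 to 0.15 for Des. Day 15 against day 10 ranged from -0.40 to 2.36 for Hand1, -0.062 to 1.65 for Foxf1a, -0.46 to 1.08 for Tbx20, -0.43 to 1.38 for Acta2, -1.22 to 1.85 for Tagln, -1.25 to 0.46 for Pdgfrb, -2.57 to 0.063 for Cnn1 and -0.56 to 0.12 for Des. JN against A9 ranged from -1.34 to 0.75 for Foxf1a, -1.13 to 0.36 for Tbx20, -3.15 to 0.081 for Postn, -1.01 to 0.92 for Acta2 and -0.52 to 0.29 for Des.

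Median promoter methylation of the members was 29.0% in ysE with at least 20 reads and 20% within 500 bp. In liver it was 30% with at least 1 read, 39% with at least 10 or 20, 31.6% within 500 bp and 27.3% within 2 kb. With 1 library left out it was 28.2% to 46.2% in ysE, 27.0% to 29.4% in liver and 54.9% to 66.7% in EBs. Each value rests on the members that had enough reads under that setting.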

Other observations

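Exon-part counts, read apart from the transcript table in E9.25 ysE replicate A and the 4 EB libraries, showed how much of each gene was covered. Postn had at least 10 reads in 31 of 37 exon parts in ysE and in 29 to 36 in EBs. Cnn1 had them in 1 of 7 parts in ysE, in 5 (A9) and 7 (JN) of 7 in day 10 EBs and in 2 (A9) and 7 (JN) in day 15 EBs. Wt1 had them in 1 of 24 parts in ysE, in 2 in both day 10 EBs, in 4 in day 15 EBs of A9 and in 11 in those of JN, so its RPKM in these libraries rested on few reads spread over a long gene. Hand1 had them in 3 of 6 parts in ysE and in 3 (A9) and 4 (JN) in EBs. For Foxf1a the exon parts held 349 reads in ysE and 682, 280, 416 and 1120 in EBs (day 10 A9, day 10 JN, day 15 A9, day 15 JN), where the transcript table held 122, 149, 85, 80 and 426. In CPM over all exon parts, Foxf1a was at 3.96 in ysE and at 16.3, 3.46, 10.5 and 12.2 in the EBs, without a replicate for ysE and with no test.

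Among the listed regulators of the contractile genes, singled out after their values were seen, Srf was at 5.59 and 5.71 RPKM in mesoderm, 2.94 and 3.70 RPKM in E9.25 ysE and 3.36 to 8.21 RPKM in EBs. Myocd, the cofactor that drives contractile genes with Srf, was at 0.089 and 0.054 RPKM in mesoderm and at 0.803 (day 10, A9), 0.297 (day 10, JN), 0.092 (day 15, A9) and 1.09 RPKM (day 15, JN) in EBs, the order of the EB libraries that Acta2 also had except for the 2 lowest. The mesothelial list held genes of unlike pattern: Krt19, a keratin that epithelia also make, was at 117 RPKM in E12.5 ysE, where Wt1 had a single read.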
